A study of Mus musculus with 16 samples.

Results

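The genes described here code for integrin subunits, other adhesion receptors and the proteins that link them to the cytoskeleton at focal adhesions, and were followed in mouse bone marrow-derived macrophages (BMDMs). They were taken by symbol from the deposited table of genes, in which all 43 were found among 22287 genes. They comprise 8 integrin alpha subunits, 5 integrin beta subunits, 6 adhesion molecules of the immunoglobulin family, 5 other surface adhesion molecules, 3 syndecans, 2 neuropilins, 9 focal adhesion adaptors and 5 kinases. Marrow cells of C57BL/6J mice aged 8 weeks were grown for 7 days with GM-CSF at 20 ng/ml (GM) or M-CSF at 50 ng/ml (M). The authors seeded more cells per ml with GM-CSF than with M-CSF, so the growth factor and the seeding density cannot be told apart. The dish was either plastic treated for tissue culture (TC) or plastic without that treatment (noTC). Cells then received vehicle (steady state) or lipopolysaccharide (LPS), a bacterial cell wall component, at 100 ng/ml for 3 h. The 8 groups had 2 RNA-seq libraries each, 16 in all, and names join the growth factor and the dish (such as GM-noTC), with the ending LPS where LPS was given. The labels leave unsaid if equal replicate numbers mark a shared animal, so the p-values measure the spread between these libraries.

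Integrins are pairs of an alpha and a beta subunit that bind matrix proteins or receptors of other cells. Talin and kindlin bind the tail of the beta subunit and switch the integrin on, while vinculin, paxillin, zyxin and the kinases FAK, Pyk2 and the Src family gather at the bound integrin. In macrophages the integrins that share the beta subunit CD18 mediate adhesion to endothelium and the uptake of complement-coated particles.

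Levels are given as CPM, a gene's count relative to the size of its library, after scaling by the trimmed mean of M-values (TMM). Libraries held 17527802 to 31458363 counts, and 42 of the 43 genes passed the filter on low counts. Bcar1, the adaptor p130Cas, did not pass, with 0 to 0.249 CPM in the 16 libraries. The summed level of 8 macrophage markers was 35967 to 45187 CPM in GM libraries and 19696 to 29350.1 CPM in M libraries, with no marker at 0. The GM-TC replicates lay further apart than those of any other group, as in Tln1 at 613 and 473 CPM. Itgam shares 68.7% of its exon bases with Gm49368 on the same strand, and Gm49368 held 0.578% to 2.69% of the reads of the pair. Ilk shares 89.7% of its exon bases with Rrp8 and Taf10, and Vcl shares 25.5% with Ap3m1, on the opposite strand. Whether the counting used strand is not given in the sources used here, so the values of these genes are uncertain.

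Per kilobase of exon, Itgb2, Itgam, Itgb1 and the tetraspanin Cd9 were among the 5 highest of the 43 genes in every steady-state group. In GM-TC, Itgb2 stood at 702 CPM per kb, Cd9 at 591, Itgam at 373 and Itgax at 191. In M-TC, Itgb2 stood at 167 CPM per kb, Itgam at 146, Itgb1 at 129 and Cd9 at 126, whereas Itgax was at 3.23. Upon LPS challenge Sdc4 and Icam1 led in M-TC-LPS, with Sdc4 at 681 CPM per kb and Icam1 at 469.9, against 35.6 and 16.2 in M-TC.

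The first comparison asked how GM-BMDMs differed from M-BMDMs on the same dish and in the same state. The CD18 integrins Itgam, Itgax and Itgb2, the cadherin Cdh1, the syndecan Sdc1 and the kinases Src and Fgr were higher in GM-BMDMs, while Itga4, Itga6, Itgav and Sdc4 were higher in M-BMDMs, in each case by more than 2-fold in all 4 comparisons. At an adjusted p under 0.05 by edgeR's quasi-likelihood test, 21 members were higher and 16 lower in GM-TC comparing with M-TC, where 61.5% of all 12514 tested genes passed in either direction. In GM-noTC comparing with M-noTC, 22 were higher and 14 lower (all genes 62.1%). Upon LPS, 19 were higher and 23 lower on TC (66.8%), and 20 were higher and 21 lower on noTC (66.1%). Above 2-fold on TC at steady state there were 15 higher members and 6 lower ones, where 13.2% and 8.54% of all genes reached that size. On noTC at steady state it was 16 and 7 (all genes 13.0% and 9.20%), and upon LPS 12 and 9 on both TC (14.9% and 10.1%) and noTC (14.4% and 10.1%). The median log2 fold change of the members was 0.16 on TC at steady state (0.02 over all genes), 0.23 on noTC (0), -0.21 on TC upon LPS (0.03) and -0.12 on noTC upon LPS (0.02). These 4 comparisons have no library in common. Across them, 18 members were higher and 13 were lower in GM-BMDMs every time, as were 17.5% and 16.3% of all tested genes. Of these members, 10 and 5 passed 2-fold every time (all genes 7.80% and 4.14%). Scaling by library size alone moved the median of all genes to -0.29 and -0.29 at steady state on TC and noTC, and that of the members to -0.16 and -0.06. The share of member calls that were lower then went from 43.2% to 51.2% on TC and from 38.9% to 51.2% on noTC. In bulk libraries, a smaller share of cells with a transcript and less of it per cell cannot be told apart. Markers of other myeloid cells moved with the growth factor. The summed level of 6 neutrophil markers was 7.62 to 22.8 CPM in GM libraries and 0.0748 to 0.513 in M libraries, in which Ly6g, Mpo and Elane were at 0. Summed over 6 markers each, dendritic cell markers were at 184 to 586 CPM in GM and 19.7 to 63.0 in M, osteoclast markers at 1492 to 1813 and 56.3 to 95.6, mast cell markers at 18.2 to 32.8 and 3.25 to 8.22, and platelet markers at 36.1 to 62.2 and 4.55 to 10.8. In every group H2-Ab1 led the dendritic cell list, Atp6v0d2 the osteoclast list, Kit the mast cell list and Pf4 the platelet list. The osteoclast marker Calcr was at 0 in GM-TC, M-TC and M-noTC. The mast cell marker Cma1 was at 0 in every group but M-noTC-LPS. The part of these markers in the differences was not tested. The summed level of 6 T and B cell markers was at most 1.14 CPM.

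**Figure D1:**
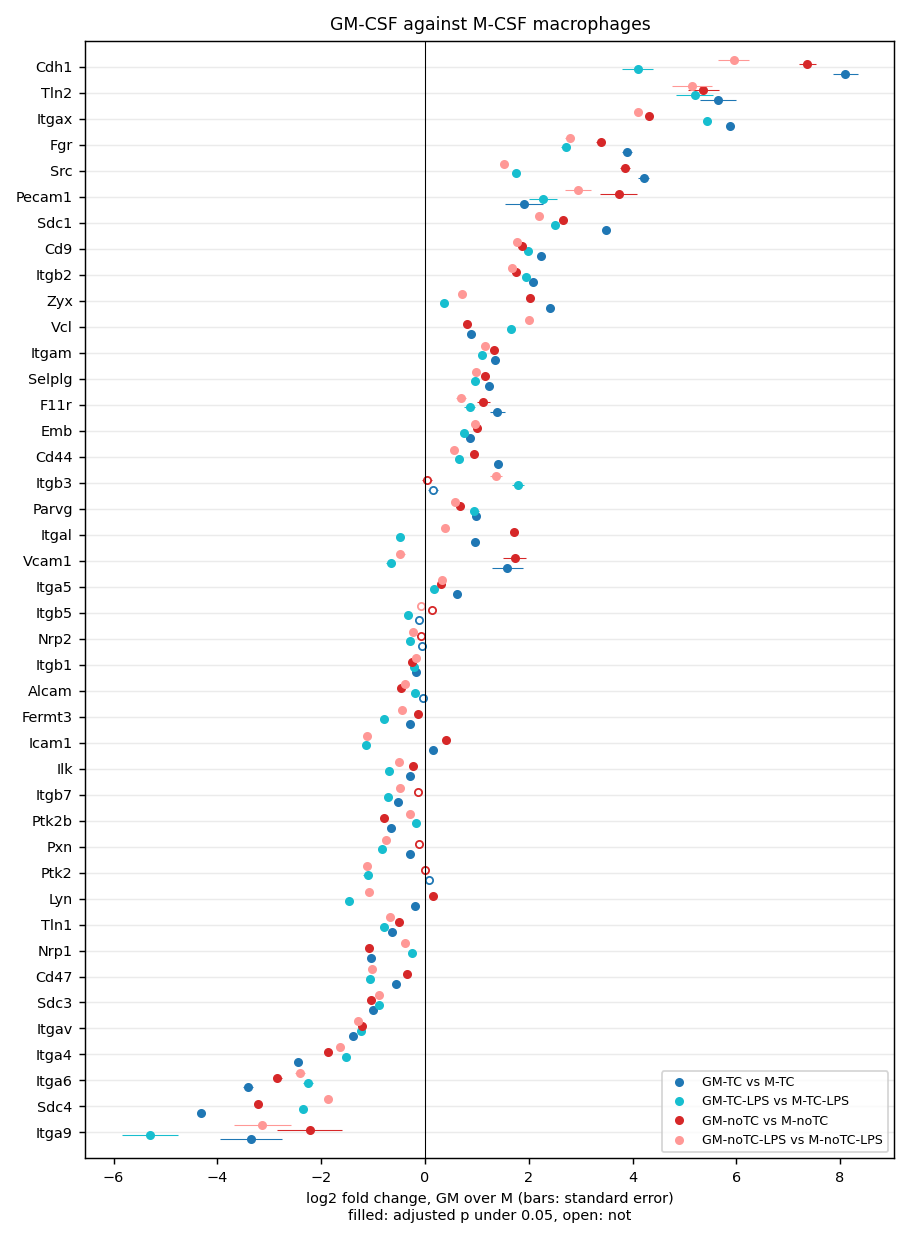
Log2 fold changes of the 42 tested members between GM and M macrophages in the 4 matched comparisons, with standard errors as bars and filled points where the adjusted p was under 0.05. Itgax lay between 4.10 and 5.88 and Itga6 between -2.26 and -3.42. The fitted values of Cdh1, Tln2 and Itga9 rest on few counts in the lower group.

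The second comparison asked what LPS changed within a growth factor and dish. The ligands Icam1 and Vcam1 and the syndecan Sdc4 were among the 4 members that rose most in every comparison. The kinase Src, Itga4, Itga5, Itgal, Itgav, Cd44 and Vcl also rose in both GM- and M-BMDMs. Few members fell, among them Cdh1 and Ptk2 in GM-BMDMs and Itgb3 and Itga6 in M-BMDMs. In GM-TC-LPS comparing with GM-TC, 26 members were higher and 8 lower (all tested genes 67.0% in either direction). In GM-noTC-LPS comparing with GM-noTC, 23 were higher and 8 lower (67.7%). In M-BMDMs on TC, LPS left 34 higher and 4 lower (74.0%), and on noTC 30 were higher and 5 lower (72.3%). Above 2-fold, 16, 15, 21 and 17 members were higher, in that order, where 13.4%, 13.1%, 17.3% and 15.9% of all genes were. The members' median log2 fold changes were 0.45, 0.30, 0.86 and 0.42, against -0.05, -0.03, -0.01 and -0.01 over all tested genes. The 4 comparisons share no library, and 22 members rose in every one of them, where 25.0% of all tested genes did. Of the 22, 13 rose by more than 2-fold each time (all genes 9.45%). Itgb5 was the single member lower in all 4 (all genes 22.7%). These directions were measured relative to a typical gene, and scaling by library size alone lowered the median of all genes to -0.53, -0.54, -0.83 and -0.73. The members' medians became -0.03, -0.21, 0.04 and -0.31. The share of member calls that were lower then went from 23.5% to 48.6%, from 25.8% to 55.0%, from 10.5% to 51.3% and from 14.3% to 53.8%. Of the 22 members that rose in all 4 comparisons, 16 were also higher in all 4 with library size alone, and Itgam, Pecam1, Cd9, Sdc3, Ptk2b and Lyn were not. The summed level of 6 endothelial markers, led by Kdr and Cdh5, was 10.8 to 14.1 CPM in steady-state libraries and 39.7 to 115.8 CPM in LPS libraries. The summed level of 8 fibroblast and stromal cell markers, led by Pdgfrb and Postn upon LPS in GM-BMDMs, was 1.45 to 27.4 CPM in steady-state libraries and 22.8 to 72.5 CPM in LPS libraries. The endothelial marker Emcn was at 0 in 5 of the 8 groups, and the part of these markers in the changes was not tested.

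**Figure D2:**
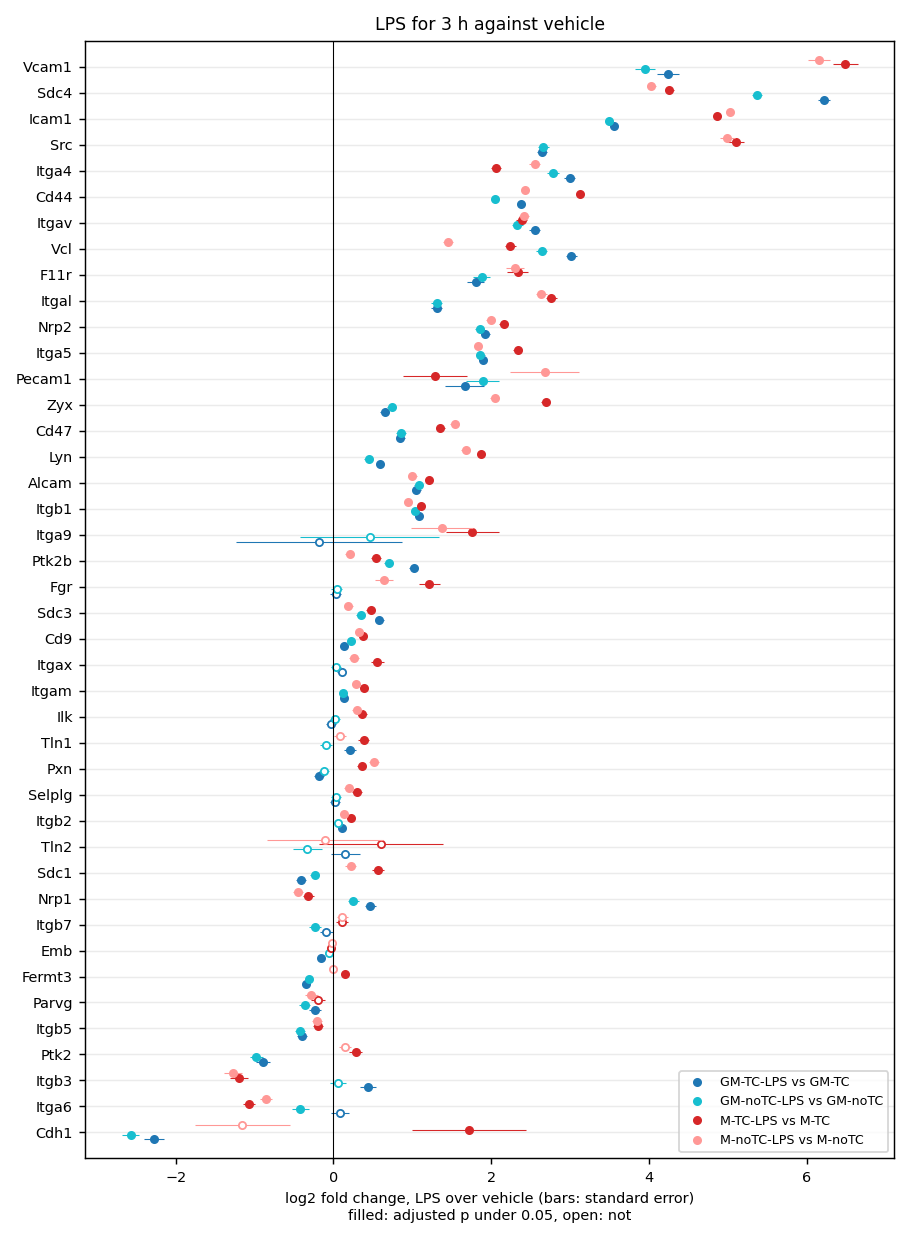
Log2 fold changes of the 42 tested members upon LPS in the 4 matched comparisons, with standard errors as bars and filled points where the adjusted p was under 0.05. Vcam1 lay between 3.95 and 6.49, Sdc4 between 4.03 and 6.22, and Icam1 between 3.5 and 5.03. Members near 0 that were higher here, such as Itgam and Cd9 in all 4 comparisons, turned lower with library size alone in place of TMM.

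The third comparison asked what the dish changed within a growth factor and state. In M-BMDMs Itgax was higher and Itgal lower on noTC. Itgam and Itgb7 were higher on noTC in all 4 comparisons, and Cdh1 was higher on noTC in GM-BMDMs. In GM-noTC comparing with GM-TC, 10 members were higher and 0 lower, where 7.54% of all tested genes passed in either direction, 4.69% higher and 2.85% lower. At an unadjusted p under 0.05, 2 members were lower (Cd9 and Src), and DESeq2 also called 0 lower. Upon LPS in GM-BMDMs, 4 were higher and 1 lower on noTC (2.80% of all genes, 2.08% higher). In M-noTC comparing with M-TC, 18 were higher and 7 lower (27.2%). Upon LPS in M-BMDMs, 9 were higher and 8 lower on noTC (23.3%, 10.4% higher). Above 2-fold, 2 members were higher in GM-BMDMs at steady state, where 0.943% of all genes were. In M-BMDMs 2 were higher and 1 lower at steady state (all genes 2.17% and 1.29%), and 1 was higher and 1 lower upon LPS (1.17% and 0.647%). The lower one was Itga9 both times, and its call at steady state was lost without any 1 of the 4 libraries compared, for example without the second M-TC library (-0.82, adjusted p = 0.296). The members' median log2 fold changes were 0.08, 0.05, 0.19 and 0.01, against 0, 0.00348, 0.01 and -0.000216 over all tested genes. At steady state, 8 members were higher on noTC in both GM- and M-BMDMs (all tested genes 2.41%), namely Itgam, Itgb7, Cd44, Cdh1, Sdc3, Tln1, Vcl and Ptk2, which is 8 of 10 in GM and 8 of 18 in M. Of these calls, Tln1 in M-BMDMs (log2 fold change 0.25) was lost without any 1 of the 4 libraries, the largest of those p-values being 0.0892 without the first M-TC library. Ptk2 in GM-BMDMs was lost without either GM-noTC library (for the first, 0.23, adjusted p = 0.269) or the second GM-TC library (0.25, adjusted p = 0.142), and Ptk2 in M-BMDMs without the first M-noTC library (0.25, adjusted p = 0.0598). Vcl in GM-BMDMs was lost without the second GM-TC library (0.21). In the fit of the GM-noTC and GM-TC libraries alone, the GM-BMDM calls of Cd44, Ptk2, Tln1 and Vcl were lost. Their adjusted p there was 0.0596, 0.142, 0.141 and 0.115. Cdh1 in M-BMDMs, at 2 and 2 counts in M-TC and 5 and 16 in M-noTC, was lost with DESeq2 (adjusted p = 0.0759), with the subtraction of reads of other libraries, without either M-TC library (for the second, 1.78, adjusted p = 0.144) and without the second M-noTC library (1.07, adjusted p = 0.475). Heart muscle markers moved with the dish at steady state. The summed level of 12 of them was 26.4 to 70.7 CPM in the GM-TC and M-TC libraries, with none at 0, and 0.505 to 1.97 CPM in the other libraries. Their part in the dish differences was not tested. The count of members called in GM-noTC comparing with GM-TC changed when the first GM-TC replicate was left out. The share of all genes called in that fit is not given here, so the change is not read as a result about the members.

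**Figure D3:**
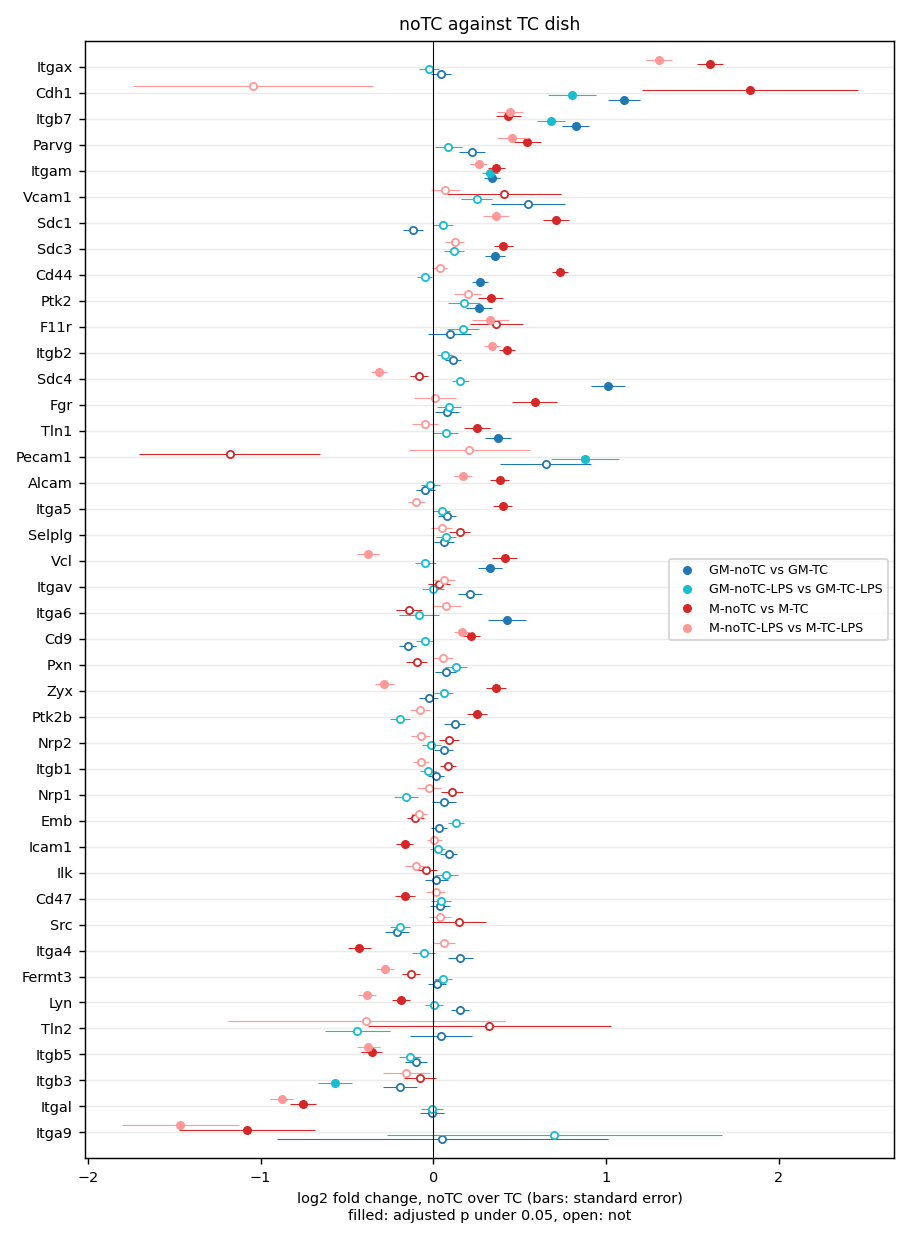
Log2 fold changes of the 42 tested members between noTC and TC dishes in the 4 matched comparisons, with standard errors as bars and filled points where the adjusted p was under 0.05. Itgax in M macrophages lay at 1.60 and 1.31, and at 0.04 and -0.03 in GM macrophages. The wide bars belong to Cdh1, Itga9, Tln2 and Pecam1, which had few counts in M macrophages or, for Itga9, in GM macrophages.

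Of the CD18 integrins, Itgb2, Itgax and Itgam were higher in GM-BMDMs in every comparison, and Itgal was not. Itgb2 (ENSMUSG00000000290), the CD18 subunit itself, was measured at 511 and 508 CPM (M-TC), 686 and 684 CPM (M-noTC), 2159.7 and 2127 CPM (GM-TC) and 2332 and 2303 CPM (GM-noTC) at steady state. With LPS, the values became 611 and 582 CPM (M-TC-LPS), 769.9 and 737 CPM (M-noTC-LPS), 2303 and 2299.6 CPM (GM-TC-LPS) and 2333 and 2487 CPM (GM-noTC-LPS). Every GM library was above every M library, by 1.68 to 2.07 on the log2 scale (SE up to 0.05, largest adjusted p = 2.49e-18). Itgax, the CD11c subunit of a complement receptor and a common marker of dendritic cells, was at 16.3 and 14.7 CPM (M-TC), 47.0 and 47.1 CPM (M-noTC), 939.6 and 893 CPM (GM-TC) and 947 and 941 CPM (GM-noTC). After LPS the libraries gave 21.4 and 24.5 CPM (M-TC-LPS), 58.8 and 54.1 CPM (M-noTC-LPS), 993 and 974 CPM (GM-TC-LPS) and 917 and 1014 CPM (GM-noTC-LPS). The GM libraries stayed within a narrow band, while the M libraries fell into separate levels by dish. The GM excess was 4.10 to 5.88 on the log2 scale (SE up to 0.08, largest adjusted p = 4.68e-22). On noTC, Itgax was higher in M-BMDMs at steady state (log2 fold change 1.60, SE 0.08, adjusted p = 1.44e-12) and upon LPS (log2 fold change 1.31, SE 0.08, adjusted p = 1.26e-10). In GM-BMDMs the dish difference was 0.04 and -0.03 (adjusted p = 0.739 and 0.896). The dish effect differed between GM and M by -1.56 at steady state (SE 0.10, adjusted p = 3.79e-10) and by -1.33 upon LPS (adjusted p = 1.29e-08), where 1.75% and 1.42% of all genes were called for such a difference. With reads from other libraries subtracted, the rise in M-noTC comparing with M-TC was 1.53, adjusted p = 9.48e-12.

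Itgam, the CD11b subunit that marks myeloid cells, was at 739 and 727 CPM (M-TC), 941 and 948 CPM (M-noTC), 1972 and 1775 CPM (GM-TC) and 2393 and 2351 CPM (GM-noTC). The LPS groups stood at 958 and 958 CPM (M-TC-LPS), 1144 and 1154 CPM (M-noTC-LPS), 2020.1 and 2074 CPM (GM-TC-LPS) and 2521 and 2621 CPM (GM-noTC-LPS). No GM library overlapped an M library of the same dish and state, with a GM excess of 1.10 to 1.35 on the log2 scale (SE up to 0.05, largest adjusted p = 9.32e-15). It was higher on noTC in all 4 dish comparisons, by 0.26 to 0.36 on the log2 scale (SE up to 0.05, largest adjusted p = 3.63e-04). Its LPS differences, 0.12 to 0.39 on the log2 scale (SE up to 0.05, largest adjusted p = 0.0366), changed direction with scaling by library size alone, to -0.35 to -0.44. The call in GM-TC-LPS was lost with the compared libraries alone (0.14) and without the second library of GM-TC (0.05) or of GM-TC-LPS (0.11). The call in GM-noTC-LPS was lost without the second library of GM-noTC (0.12) or of GM-noTC-LPS (0.09). Itgal, the CD11a subunit of the receptor for Icam1, was at 47.3 and 45.2 CPM (M-TC), 27.9 and 26.9 CPM (M-noTC), 96.3 and 85.3 CPM (GM-TC) and 92.3 and 87.9 CPM (GM-noTC). LPS-treated cells had 313 and 313 CPM (M-TC-LPS), 162 and 179 CPM (M-noTC-LPS), 212 and 237 CPM (GM-TC-LPS) and 219.8 and 227 CPM (GM-noTC-LPS). At steady state GM libraries were above M libraries (0.97 on TC and 1.72 on noTC, log2 fold changes), and upon LPS the order on TC turned, at -0.48 (adjusted p = 9.15e-07). LPS raised Itgal by 2.76 and 2.64 on the log2 scale (SE up to 0.07, largest adjusted p = 6.39e-19) in M-BMDMs on TC and noTC, and on both dishes by 1.31 and 1.31 on the log2 scale (SE up to 0.07, largest adjusted p = 8.60e-14) in GM-BMDMs. On noTC it was lower in M-BMDMs, at -0.76 and -0.88 (largest adjusted p = 9.46e-08), whereas the GM-BMDM differences were -0.01 and -0.01 and their libraries overlapped.

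**Figure D4:**
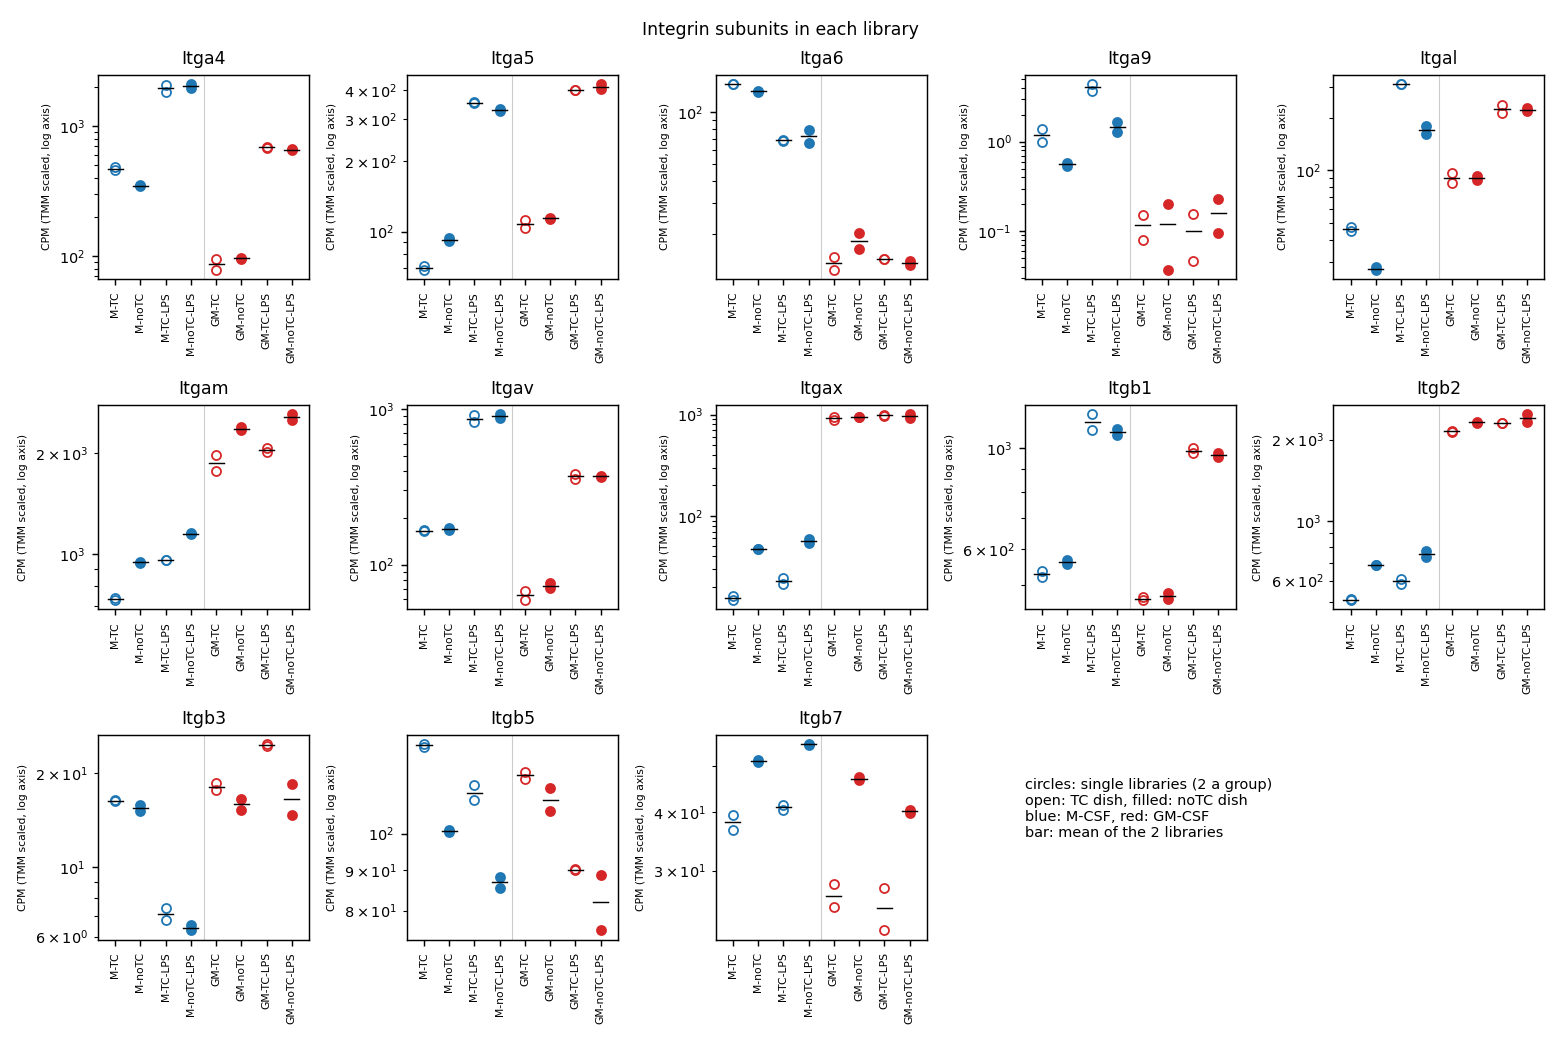
Level of the 13 integrin subunits in each of the 16 libraries, in CPM on log axes, with circles for libraries and bars for the mean of 2. Itgax stood between 893 and 1014 CPM in GM libraries and between 14.7 and 58.8 CPM in M libraries, and Itga4, Itga5 and Itgav were higher with LPS than with vehicle in both.

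The alpha subunits that bind fibronectin, vitronectin, laminin or Vcam1 were higher in M-BMDMs, with Itga5 as the exception. Itga4, the alpha4 subunit of the Vcam1 receptor, was at 482 and 459 CPM (M-TC), 344 and 355 CPM (M-noTC), 94.7 and 78.1 CPM (GM-TC) and 96.3 and 95.5 CPM (GM-noTC). Its levels upon LPS were 1851 and 2071 CPM (M-TC-LPS), 1965 and 2126 CPM (M-noTC-LPS), 676 and 698 CPM (GM-TC-LPS) and 659 and 664 CPM (GM-noTC-LPS). Each LPS library was above all vehicle libraries of the same growth factor, and each M library above the GM libraries of the same state. The difference from GM to M was -1.51 to -2.45 on the log2 scale (SE up to 0.07, largest adjusted p = 9.73e-15), and the LPS rise was 2.06 to 2.99 on the log2 scale (SE up to 0.07, largest adjusted p = 1.84e-17). Itga4 was lower in M-noTC comparing with M-TC (log2 fold change -0.43, SE 0.07, adjusted p = 3.79e-05). Itgav, which pairs with Itgb3 or Itgb5 to bind vitronectin, was at 164 and 167 CPM (M-TC), 171 and 167 CPM (M-noTC), 67.5 and 59.1 CPM (GM-TC) and 70.4 and 76.0 CPM (GM-noTC). Upon LPS challenge its level was 821 and 908 CPM (M-TC-LPS), 876 and 928 CPM (M-noTC-LPS), 384 and 356 CPM (GM-TC-LPS) and 365 and 374 CPM (GM-noTC-LPS). It rose by 2.33 to 2.55 on the log2 scale (SE up to 0.07, largest adjusted p = 2.24e-18) and remained lower in GM-BMDMs (log2 fold changes -1.21 to -1.39, SE up to 0.07, largest adjusted p = 3.61e-13). No dish difference passed the test, the log2 fold changes lying between -0.00264 and 0.21. Itga5, the alpha subunit of the fibronectin receptor, was at 71.2 and 68.8 CPM (M-TC), 94.0 and 90.9 CPM (M-noTC), 112 and 104 CPM (GM-TC) and 114 and 114 CPM (GM-noTC). With LPS, the values became 355 and 352 CPM (M-TC-LPS), 334 and 327 CPM (M-noTC-LPS), 399 and 401 CPM (GM-TC-LPS) and 403 and 425 CPM (GM-noTC-LPS). LPS raised it by 1.84 to 2.34 on the log2 scale (SE up to 0.05, largest adjusted p = 1.22e-18), and it was higher in GM-BMDMs by 0.18 to 0.62 on the log2 scale (SE up to 0.05, largest adjusted p = 0.00317), except that on noTC at steady state the value with library size alone was 0.00838 and did not pass. In M-BMDMs it was higher on noTC at steady state (log2 fold change 0.40, SE 0.05, adjusted p = 5.21e-06).

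Itga6, a laminin receptor subunit, was at 144 and 145 CPM (M-TC), 130.1 and 131 CPM (M-noTC), 14.7 and 12.4 CPM (GM-TC) and 20.1 and 16.3 CPM (GM-noTC). After LPS the libraries gave 69.1 and 67.9 CPM (M-TC-LPS), 78.7 and 65.8 CPM (M-noTC-LPS), 14.4 and 14.3 CPM (GM-TC-LPS) and 13.2 and 13.9 CPM (GM-noTC-LPS). All M libraries were above all GM libraries, with log2 fold changes of -2.26 to -3.42 (SE up to 0.10, largest adjusted p = 6.02e-15). LPS lowered it in M-BMDMs (log2 fold changes -1.07 and -0.86, SE up to 0.08, largest adjusted p = 1.61e-09), and the change in GM-BMDMs was 0.09 on TC (adjusted p = 0.513) and -0.42 on noTC (adjusted p = 0.00172), the latter call being lost without the first GM-noTC library (-0.24, adjusted p = 0.0865). It was higher in GM-noTC comparing with GM-TC (log2 fold change 0.43, SE 0.11, adjusted p = 0.0161), without a call in the fit of those 4 libraries alone, without the first GM-noTC library (0.27, adjusted p = 0.311) or without the second GM-TC library (0.30, adjusted p = 0.201). Itga9, which pairs with Itgb1, was scarce. Its counts were 25 and 37 (M-TC), 16 and 25 (M-noTC), 90 and 63 (M-TC-LPS) and 25 and 33 (M-noTC-LPS). The GM libraries held 1 to 5 counts each. The excess of M-TC over GM-TC was 10.7-fold (exact 95% counting interval 4.34 to 34.1), and that of M-TC-LPS over GM-TC-LPS 41.7-fold (exact 95% counting interval 15.9 to 155). On noTC at steady state the log2 fold change was -2.22, and the call was lost without the second GM-noTC library (-1.45, adjusted p = 0.0795). In M-BMDMs it rose upon LPS on TC (log2 fold change 1.76, SE 0.33, adjusted p = 6.32e-05) and was lower on noTC than on TC upon LPS (log2 fold change -1.46, SE 0.34, adjusted p = 0.00288), the latter call being lost without the first M-noTC-LPS library (-1.30, adjusted p = 0.0527).

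Among the beta subunits other than Itgb2, Itgb1 and Itgb5 differed little between growth factors. Itgb1, the common partner of many alpha subunits, was at 520.5 and 536 CPM (M-TC), 556 and 566 CPM (M-noTC), 470.0 and 463 CPM (GM-TC) and 478 and 465 CPM (GM-noTC). The LPS groups stood at 1094 and 1186 CPM (M-TC-LPS), 1068 and 1099 CPM (M-noTC-LPS), 974 and 998 CPM (GM-TC-LPS) and 972 and 956 CPM (GM-noTC-LPS). LPS raised it by 0.95 to 1.11 on the log2 scale (SE up to 0.05, largest adjusted p = 4.14e-14) and it was lower in GM-BMDMs (log2 fold changes -0.17 to -0.25, SE up to 0.05, largest adjusted p = 0.00357). The LPS libraries did not overlap the vehicle libraries, and no dish difference passed the test. Itgb3, which forms the vitronectin receptor with Itgav and marks osteoclasts, was at 16.4 and 16.4 CPM (M-TC), 15.1 and 15.9 CPM (M-noTC), 17.7 and 18.6 CPM (GM-TC) and 16.6 and 15.3 CPM (GM-noTC). LPS-treated cells had 7.43 and 6.80 CPM (M-TC-LPS), 6.52 and 6.29 CPM (M-noTC-LPS), 24.8 and 24.5 CPM (GM-TC-LPS) and 18.5 and 14.7 CPM (GM-noTC-LPS). At steady state the growth factors did not differ beyond the spread (0.15 and 0.04, adjusted p = 0.185 and 0.763). Upon LPS it was higher in GM-BMDMs by 1.79 and 1.37 on the log2 scale (SE up to 0.12, largest adjusted p = 9.48e-10) and it fell in M-BMDMs with log2 fold changes of -1.20 and -1.28 (SE up to 0.12, largest adjusted p = 3.83e-09) and rose in GM-TC (log2 fold change 0.44, SE 0.10, adjusted p = 3.77e-04), the latter being -0.04 with library size alone.

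Itgb5 was at 129 and 129.6 CPM (M-TC), 101 and 101 CPM (M-noTC), 117 and 119.7 CPM (GM-TC) and 114 and 107 CPM (GM-noTC). Its levels upon LPS were 115 and 110.1 CPM (M-TC-LPS), 88.2 and 85.5 CPM (M-noTC-LPS), 90.3 and 89.9 CPM (GM-TC-LPS) and 75.6 and 88.6 CPM (GM-noTC-LPS). It was lower upon LPS in all 4 comparisons with log2 fold changes of -0.20 to -0.43 (SE up to 0.06, largest adjusted p = 0.00765), although without the second M-TC-LPS library the M-TC value did not pass (-0.16, adjusted p = 0.0668). It was lower on noTC in M-BMDMs (log2 fold changes -0.36 and -0.38, SE up to 0.06, largest adjusted p = 1.80e-04). Itgb7, which pairs with Itga4 or Itgae, was at 39.5 and 36.6 CPM (M-TC), 51.7 and 51.2 CPM (M-noTC), 25.0 and 28.0 CPM (GM-TC) and 46.7 and 47.5 CPM (GM-noTC). Upon LPS challenge its level was 41.4 and 40.4 CPM (M-TC-LPS), 55.6 and 55.7 CPM (M-noTC-LPS), 22.4 and 27.5 CPM (GM-TC-LPS) and 39.7 and 40.5 CPM (GM-noTC-LPS). It was higher on noTC in all 4 dish comparisons, by 0.43 to 0.82 on the log2 scale (SE up to 0.08, largest adjusted p = 1.96e-04), and the libraries of the dishes did not overlap. It was lower in GM-TC comparing with M-TC (log2 fold change -0.52, SE 0.08, adjusted p = 7.58e-06), and the difference on noTC was -0.13 (adjusted p = 0.129).

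Of the 6 adhesion molecules of the immunoglobulin family, 5 rose upon LPS in all 4 comparisons (all tested genes 25.0%) and Emb did not. Icam1 (ENSMUSG00000037405), the ligand of the CD18 integrins, was at 72.2 and 68.8 CPM (M-TC), 62.0 and 63.6 CPM (M-noTC), 77.7 and 79.6 CPM (GM-TC) and 84.2 and 83.1 CPM (GM-noTC). With LPS, the values became 2055 and 2043 CPM (M-TC-LPS), 2073 and 2036 CPM (M-noTC-LPS), 929 and 932 CPM (GM-TC-LPS) and 932 and 960.4 CPM (GM-noTC-LPS). The vehicle libraries lay close together, and the M-BMDM libraries with LPS were about level on both dishes and above the GM libraries. LPS raised Icam1 by 4.86 and 5.03 on the log2 scale (SE up to 0.05, largest adjusted p = 8.96e-26) in M-BMDMs and by 3.56 and 3.5 on the log2 scale (SE up to 0.05, largest adjusted p = 8.56e-24) in GM-BMDMs. The rise was smaller in GM than in M on TC (difference -1.30, SE 0.07, adjusted p = 6.80e-13) and on noTC (difference -1.53, SE 0.07, adjusted p = 6.88e-14). For these tests of the difference, 12.7% of all genes were called on TC and 10.3% on noTC.

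Vcam1, the ligand of the integrin with Itga4, was at 0.718 and 0.449 CPM (M-TC), 0.775 and 0.767 CPM (M-noTC), 2.02 and 1.53 CPM (GM-TC) and 2.81 and 2.33 CPM (GM-noTC). After LPS the libraries gave 48.6 and 56.5 CPM (M-TC-LPS), 51.8 and 58.3 CPM (M-noTC-LPS), 33.6 and 33.1 CPM (GM-TC-LPS) and 39.3 and 39.9 CPM (GM-noTC-LPS). It was near 1 CPM or below in M-BMDMs at steady state and above 30 CPM in every LPS library. The rise was 6.49 and 6.15 on the log2 scale (SE up to 0.16, largest adjusted p = 6.79e-20) in M-BMDMs and 4.25 and 3.95 on the log2 scale (SE up to 0.14, largest adjusted p = 3.07e-17) in GM-BMDMs, and the rise in GM was smaller (difference -2.24, SE 0.31, adjusted p = 3.80e-06) on TC and (difference -2.20, SE 0.24, adjusted p = 1.96e-07) on noTC. At steady state it was higher in GM-BMDMs (log2 fold changes 1.59 and 1.73), and upon LPS it was lower (-0.66 and -0.48, largest adjusted p = 4.01e-05). Pecam1, the CD31 molecule of leukocyte and endothelial junctions, was at 0.638 and 0.262 CPM (M-TC), 0.270 and 0.139 CPM (M-noTC), 1.51 and 1.81 CPM (GM-TC) and 2.41 and 2.85 CPM (GM-noTC). The LPS groups stood at 0.984 and 1.22 CPM (M-TC-LPS), 1.33 and 1.20 CPM (M-noTC-LPS), 5.07 and 5.57 CPM (GM-TC-LPS) and 11 and 8.58 CPM (GM-noTC-LPS). GM libraries were above M libraries, by 1.90 to 3.73 on the log2 scale (SE up to 0.36, largest adjusted p = 9.80e-05), and LPS raised it by 1.29 to 2.68 on the log2 scale (SE up to 0.43, largest adjusted p = 0.00721), although the rise on TC in M-BMDMs did not pass with library size alone (0.47) or without the second library of M-TC (0.78, adjusted p = 0.118) or of M-TC-LPS (1.14, adjusted p = 0.0533). The dish effect at steady state differed between GM and M (difference 1.83, SE 0.58, adjusted p = 0.0433), but neither dish difference passed by itself. That call was lost without the first M-TC library (1.08, adjusted p = 0.463), the second M-noTC library (1.36, adjusted p = 0.252) or either GM-noTC library (for the second, 1.70, adjusted p = 0.105).

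F11r, the junctional molecule JAM-A, was higher in GM-BMDMs by 0.70 to 1.39 on the log2 scale (SE up to 0.15, largest adjusted p = 1.62e-06) and rose upon LPS by 1.80 to 2.34 on the log2 scale (SE up to 0.13, largest adjusted p = 1.93e-12). Alcam, the CD166 molecule, rose by 1.0 to 1.21 on the log2 scale (SE up to 0.06, largest adjusted p = 2.47e-13). Emb, the adhesion molecule embigin, was higher in GM-BMDMs by 0.75 to 1.0 on the log2 scale (SE up to 0.05, largest adjusted p = 6.53e-12), and of its LPS differences that in GM-TC alone passed (log2 fold change -0.15, SE 0.05, adjusted p = 0.00655).

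The sequences before the start of Icam1 and Sdc4 are shown because both genes had among the largest LPS responses and both windows hold letters of the NF-kappaB site. The letters searched were GGNNNTTCC on both strands, in the 250 bases before each RefSeq start (GRCm38.p6), and matches are in capitals. They occurred before 6 of the 30 members with a promoter in the table (20%), namely Cd9, Icam1, Ilk, Itga5, Itgb1 and Sdc4, and before 17.6% of all genes and in 15.7% of all promoters. The cyclic AMP site TGACGTCA, searched in the same windows, was in 0 of the 30 and in 1.55% of all promoters. The STAT site TTCNNNGAA was in that of Icam1 (7.02% of all promoters), and the letters GAGGAAGT of the PU.1 site were in that of Itgav (2.44%).
Icam1: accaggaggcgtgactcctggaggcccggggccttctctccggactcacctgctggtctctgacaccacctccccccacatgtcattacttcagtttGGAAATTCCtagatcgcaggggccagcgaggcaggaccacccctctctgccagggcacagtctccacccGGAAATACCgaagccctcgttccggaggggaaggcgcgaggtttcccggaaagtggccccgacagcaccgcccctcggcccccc
Sdc4: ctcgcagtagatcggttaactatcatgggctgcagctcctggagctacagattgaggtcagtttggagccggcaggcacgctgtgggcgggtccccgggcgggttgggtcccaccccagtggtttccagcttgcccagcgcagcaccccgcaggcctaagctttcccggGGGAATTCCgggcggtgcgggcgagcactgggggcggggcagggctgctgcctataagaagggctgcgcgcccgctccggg
The Icam1 window (chr9:21015690-21015939, plus strand) held matches that begin 153 and 84 bases before the start, and the Sdc4 window (chr2:164443189-164443438, minus strand) held 1 that begins 81 bases before it. Src, Cd44 and Itga4, which also rose in all 4 comparisons, have windows without these letters. A match describes letters and not binding.

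Cd44, the hyaluronan receptor, was at 142 and 142 CPM (M-TC), 237 and 236 CPM (M-noTC), 378 and 374 CPM (GM-TC) and 462 and 444 CPM (GM-noTC). LPS-treated cells had 1218 and 1255 CPM (M-TC-LPS), 1282 and 1255 CPM (M-noTC-LPS), 1984 and 1907 CPM (GM-TC-LPS) and 1845 and 1909 CPM (GM-noTC-LPS). All 3 factors moved it, with GM above M by 0.57 to 1.40 on the log2 scale (SE up to 0.05, largest adjusted p = 1.97e-10) and LPS above vehicle by 2.05 to 3.12 on the log2 scale (SE up to 0.05, largest adjusted p = 2.67e-20). On noTC it was higher at steady state in GM-BMDMs (log2 fold change 0.27, SE 0.04, adjusted p = 3.85e-04) and M-BMDMs (log2 fold change 0.73, SE 0.05, adjusted p = 1.70e-10), and upon LPS the dish differences were -0.05 and 0.04, below the threshold. The steady-state call in GM-BMDMs was lost in the fit of the compared libraries alone (0.27, adjusted p = 0.0596). Cdh1, or E-cadherin, was found mainly in GM-BMDMs. It was at 0.0798 and 0.0748 CPM (M-TC), 0.168 and 0.372 CPM (M-noTC), 23.2 and 21.9 CPM (GM-TC) and 48.6 and 48.2 CPM (GM-noTC). Its levels upon LPS were 0.197 and 0.349 CPM (M-TC-LPS), 0.154 and 0.0998 CPM (M-noTC-LPS), 5.07 and 4.27 CPM (GM-TC-LPS) and 7.96 and 8.30 CPM (GM-noTC-LPS). The M libraries held 2 to 16 counts each. The GM excess was 292-fold (exact 95% counting interval 114 to 1072) on TC and 64.3-fold (exact 95% counting interval 27.3 to 199) on noTC upon LPS. In GM-BMDMs it was higher on noTC at steady state (log2 fold change 1.10, SE 0.09, adjusted p = 5.48e-08) and upon LPS (log2 fold change 0.80, SE 0.14, adjusted p = 0.00142), and it fell upon LPS on both dishes (-2.28 and -2.57, largest adjusted p = 2.16e-13). The call of a higher Cdh1 in M-noTC than in M-TC rested on 5 and 16 counts against 2 and 2, a difference of 3.74-fold (exact 95% counting interval 1.26 to 15.0), and was lost when reads from other libraries were subtracted (1.54, adjusted p = 0.0935) and without the second M-noTC library (1.07, adjusted p = 0.475). Its LPS call in M-TC rested on 4 and 6 counts against 2 and 2, a difference of 3.45-fold (exact 95% counting interval 0.995 to 15.1), and was lost with DESeq2 and without either M-TC library (for the second, 1.68, adjusted p = 0.108).

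Cd9, a tetraspanin that associates with integrins, was higher in GM-BMDMs by 1.77 to 2.23 on the log2 scale (SE up to 0.05, largest adjusted p = 3.89e-18). It ran from 255 to 380.0 CPM in M libraries and from 1086 to 1347 CPM in GM libraries. Selplg, the P-selectin ligand PSGL-1, was also higher in GM-BMDMs, by 0.96 to 1.24 on the log2 scale (SE up to 0.06, largest adjusted p = 5.19e-12). Cd47, the ligand of the inhibitory receptor SIRP alpha, was lower in GM-BMDMs (log2 fold changes -0.35 to -1.06, SE up to 0.06, largest adjusted p = 1.74e-05) and rose upon LPS by 0.85 to 1.54 on the log2 scale (SE up to 0.06, largest adjusted p = 2.12e-11).

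Syndecans, which carry heparan sulfate chains and act beside integrins, split by growth factor. Sdc1 was at 19.2 and 17.6 CPM (M-TC), 29.7 and 30.4 CPM (M-noTC), 201 and 211 CPM (GM-TC) and 191 and 189 CPM (GM-noTC). Upon LPS challenge its level was 28.5 and 25.8 CPM (M-TC-LPS), 34.4 and 35.5 CPM (M-noTC-LPS), 154 and 156 CPM (GM-TC-LPS) and 153 and 169 CPM (GM-noTC-LPS). Every GM library was above every M library, by 2.20 to 3.49 on the log2 scale (SE up to 0.07, largest adjusted p = 1.00e-17). In M-BMDMs it was higher on noTC by 0.71 and 0.36 on the log2 scale (SE up to 0.08, largest adjusted p = 0.0012). The LPS change was down in GM-BMDMs (-0.41 and -0.24) and up in M-BMDMs (0.57 and 0.22), the latter turning to -0.26 and -0.51 with library size alone. Sdc4 was at 90.2 and 91.0 CPM (M-TC), 83.6 and 87.1 CPM (M-noTC), 4.65 and 4.51 CPM (GM-TC) and 9.54 and 8.91 CPM (GM-noTC). With LPS, the values became 1737 and 1731 CPM (M-TC-LPS), 1377 and 1412 CPM (M-noTC-LPS), 351 and 332 CPM (GM-TC-LPS) and 393 and 368 CPM (GM-noTC-LPS). The order was reversed, with every M library above the GM libraries of the same state, with log2 fold changes of -1.87 to -4.31 (SE up to 0.08, largest adjusted p = 1.18e-18). LPS raised it by 6.22 and 5.37 on the log2 scale (SE up to 0.07, largest adjusted p = 1.44e-24) in GM-BMDMs and by 4.26 and 4.03 on the log2 scale (SE up to 0.06, largest adjusted p = 3.74e-24) in M-BMDMs, and the rise in GM was larger on TC (difference 1.96, SE 0.10, adjusted p = 4.72e-13) and on noTC (difference 1.34, SE 0.08, adjusted p = 2.82e-11). Sdc4 rose in GM cells from TC to noTC (log2 fold change 1.01, SE 0.10, adjusted p = 5.40e-07). With reads from other libraries subtracted that value became 0.24, adjusted p = 0.293, and the difference of the dish effects between GM and M, 1.10, became 0.37, adjusted p = 0.0643. The difference of the LPS rises on noTC became 2.06, adjusted p = 2.68e-13. The share subtracted, 0.67% in GM and 0.60% in M, was itself set from the excess of noTC over TC. The subtraction therefore cannot tell reads of other libraries from a true rise on noTC. Sdc3 was lower in GM-BMDMs (log2 fold changes -0.88 to -1.04, SE up to 0.06, largest adjusted p = 6.87e-12).

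Of the neuropilins, co-receptors for semaphorins and VEGF, Nrp1 was at 209 and 222 CPM (M-TC), 232 and 232 CPM (M-noTC), 115 and 94.9 CPM (GM-TC) and 109 and 109 CPM (GM-noTC). After LPS the libraries gave 168 and 177 CPM (M-TC-LPS), 164 and 175 CPM (M-noTC-LPS), 142 and 147 CPM (GM-TC-LPS) and 126 and 133 CPM (GM-noTC-LPS). It was lower in GM-BMDMs (log2 fold changes -0.25 to -1.09, SE up to 0.07, largest adjusted p = 0.00259). LPS lowered it in M-BMDMs (-0.32 and -0.45) and raised it in GM-BMDMs (0.47 and 0.25, largest adjusted p of the 4 = 0.00296), although both GM values were below 0 with library size alone. Nrp2 rose upon LPS in all 4 comparisons by 1.85 to 2.16 on the log2 scale (SE up to 0.06, largest adjusted p = 9.14e-18).

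Between growth factors on TC, and upon LPS in GM-TC, the focal adhesion adaptors split evenly by direction, as all tested genes nearly did. Of the 8 adaptors tested, 4 were higher and 4 lower in GM-TC than in M-TC (all tested genes 32.6% and 28.9%). With LPS, GM cells on TC had 3 higher and 3 lower (32.8% and 34.2%). Among M cells on TC, LPS left 6 of 8 higher (37.6%). Of these, Fermt3, Ilk, Pxn and Tln1 turned lower with library size alone. Tln2, a paralog of talin, was at 0.279 and 0.0748 CPM (M-TC), 0.101 and 0.302 CPM (M-noTC), 10.7 and 7.37 CPM (GM-TC) and 8.85 and 9.61 CPM (GM-noTC). The LPS groups stood at 0.246 and 0.291 CPM (M-TC-LPS), 0.205 and 0.200 CPM (M-noTC-LPS), 8.84 and 11 CPM (GM-TC-LPS) and 7.77 and 6.89 CPM (GM-noTC-LPS). GM libraries held 151 to 260 counts and M libraries 2 to 13, and Tln1, the other talin, was lower in GM-BMDMs (log2 fold changes -0.50 to -0.80, SE up to 0.07, largest adjusted p = 3.68e-06). Vcl, or vinculin, rose upon LPS from 74.8 and 63.7 CPM in GM-TC to 557 and 559.8 in GM-TC-LPS, and from 39.5 and 34.8 in M-TC to 178 and 173 in M-TC-LPS. On noTC it went from 86.5 and 86.9 to 523 and 558 CPM in GM and from 50.004 and 48.9 to 135 and 135 in M. The rise was 1.45 to 3.01 on the log2 scale (SE up to 0.07, largest adjusted p = 9.51e-15), larger in GM than in M on noTC (difference 1.19, SE 0.09, adjusted p = 8.46e-10). The dish difference of Vcl in M-BMDMs was 0.41 at steady state and -0.38 upon LPS (larger adjusted p = 1.65e-04).

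Zyx, or zyxin, was at 66.6 and 67.6 CPM (M-TC), 84.0 and 88.3 CPM (M-noTC), 346 and 369 CPM (GM-TC) and 347 and 355 CPM (GM-noTC). LPS-treated cells had 441 and 425 CPM (M-TC-LPS), 359 and 353 CPM (M-noTC-LPS), 547 and 574 CPM (GM-TC-LPS) and 555 and 614 CPM (GM-noTC-LPS). The gap between growth factors was 2.41 and 2.02 at steady state and 0.37 and 0.72 upon LPS, all higher in GM-BMDMs (largest adjusted p = 3.00e-06). The LPS rise was smaller in GM than in M on TC (difference -2.04, SE 0.08, adjusted p = 8.75e-15) and on noTC (difference -1.31, SE 0.08, adjusted p = 1.21e-11). Parvg, the parvin of blood cells that binds Ilk, was at 23.7 and 25.2 CPM (M-TC), 36.1 and 35.2 CPM (M-noTC), 49.6 and 47.2 CPM (GM-TC) and 60.3 and 52.8 CPM (GM-noTC). Its levels upon LPS were 20.8 and 22.0 CPM (M-TC-LPS), 31.6 and 27.1 CPM (M-noTC-LPS), 40.4 and 42.0 CPM (GM-TC-LPS) and 42.6 and 45.0 CPM (GM-noTC-LPS). It was higher in GM-BMDMs by 0.58 to 0.99 on the log2 scale (SE up to 0.09, largest adjusted p = 1.79e-06) and higher on noTC in M-BMDMs by 0.54 and 0.46 on the log2 scale (SE up to 0.09, largest adjusted p = 6.66e-04). Fermt3, the kindlin of blood cells, was lower in GM-BMDMs (log2 fold changes -0.14 to -0.79, SE up to 0.05, largest adjusted p = 0.0193), with a call on noTC at steady state that was lost without the second library of GM-noTC (-0.12, adjusted p = 0.122) or M-noTC. Ilk, the integrin-linked pseudokinase, was also lower in GM-BMDMs (log2 fold changes -0.23 to -0.68, SE up to 0.06, largest adjusted p = 0.0027). Pxn, or paxillin, was lower in GM-TC comparing with M-TC (log2 fold change -0.29, SE 0.06, adjusted p = 2.92e-04), and on noTC at steady state the value was -0.12 (adjusted p = 0.0871).

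Of the kinases, Src and Fgr were higher in GM-BMDMs. Src was at 2.59 and 2.17 CPM (M-TC), 2.83 and 2.49 CPM (M-noTC), 45.1 and 43.3 CPM (GM-TC) and 37.6 and 38.7 CPM (GM-noTC). Upon LPS challenge its level was 85.7 and 77.8 CPM (M-TC-LPS), 86.8 and 81.5 CPM (M-noTC-LPS), 279.6 and 274 CPM (GM-TC-LPS) and 233 and 251 CPM (GM-noTC-LPS). No library overlapped between growth factors within a state, and M-BMDMs with LPS were above GM-BMDMs with vehicle. The GM excess was 1.52 to 4.21 on the log2 scale (SE up to 0.10, largest adjusted p = 2.12e-15). LPS raised Src by 5.10 and 5.0 on the log2 scale (SE up to 0.10, largest adjusted p = 1.52e-21) in M-BMDMs and by 2.65 and 2.66 on the log2 scale (SE up to 0.07, largest adjusted p = 1.49e-19) in GM-BMDMs, a smaller rise in GM on TC (difference -2.46, SE 0.13, adjusted p = 1.64e-12) and on noTC (difference -2.33, SE 0.12, adjusted p = 1.21e-12). Fgr, a Src family kinase of myeloid cells, was higher in GM-BMDMs by 2.71 to 3.90 on the log2 scale (SE up to 0.10, largest adjusted p = 1.04e-16). It ran from 3.33 to 8.42 CPM in M libraries and from 47.6 to 57.0 CPM in GM libraries. Its LPS effect differed between growth factors on TC (difference -1.19, SE 0.15, adjusted p = 1.43e-06).

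Lyn, another Src family kinase, was at 172 and 176 CPM (M-TC), 151 and 154 CPM (M-noTC), 149 and 157 CPM (GM-TC) and 174 and 167 CPM (GM-noTC). With LPS, the values became 625 and 647 CPM (M-TC-LPS), 477 and 497 CPM (M-noTC-LPS), 223 and 239 CPM (GM-TC-LPS) and 227 and 236 CPM (GM-noTC-LPS). At steady state the growth factors were within -0.18 and 0.16 of each other on the log2 scale, the latter turning to -0.13 with library size alone and being lost without the first GM-noTC library (0.12, adjusted p = 0.159) or either M-noTC library. Upon LPS it was lower in GM-BMDMs (log2 fold changes -1.46 and -1.07, SE up to 0.05, largest adjusted p = 4.33e-14), and its LPS rise, which in GM-noTC became -0.06 with library size alone, was smaller in GM on TC (difference -1.28, SE 0.07, adjusted p = 5.61e-12) and on noTC (difference -1.23, SE 0.07, adjusted p = 1.21e-11). Ptk2, which codes for FAK, was at 26.3 and 27.6 CPM (M-TC), 36.0 and 32.1 CPM (M-noTC), 28.7 and 28.0 CPM (GM-TC) and 34.9 and 33.3 CPM (GM-noTC). After LPS the libraries gave 33.1 and 32.4 CPM (M-TC-LPS), 35.3 and 40.0 CPM (M-noTC-LPS), 15.8 and 14.8 CPM (GM-TC-LPS) and 17.4 and 17.2 CPM (GM-noTC-LPS). It fell in GM-BMDMs upon LPS, to levels below all other libraries (log2 fold changes -0.89 and -0.98, SE up to 0.09, largest adjusted p = 6.04e-09). In M-BMDMs the changes were 0.28 (adjusted p = 0.00273) and 0.15 (adjusted p = 0.0746), the former turning to -0.55 with library size alone. The difference of the LPS effects was -1.17 on TC and -1.13 on noTC (larger adjusted p = 3.37e-08). Ptk2b, which codes for the related Pyk2, was lower in GM-BMDMs (log2 fold changes -0.17 to -0.78, SE up to 0.06, largest adjusted p = 0.0125) and rose upon LPS by 0.21 to 1.02 on the log2 scale (SE up to 0.06, largest adjusted p = 0.00283), although both M-BMDM values turned to -0.29 and -0.52 with library size alone. Its growth factor difference on TC upon LPS (-0.17) was lost without either GM-TC-LPS library or the first M-TC-LPS library (-0.15, adjusted p = 0.075).

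**Figure D5:**
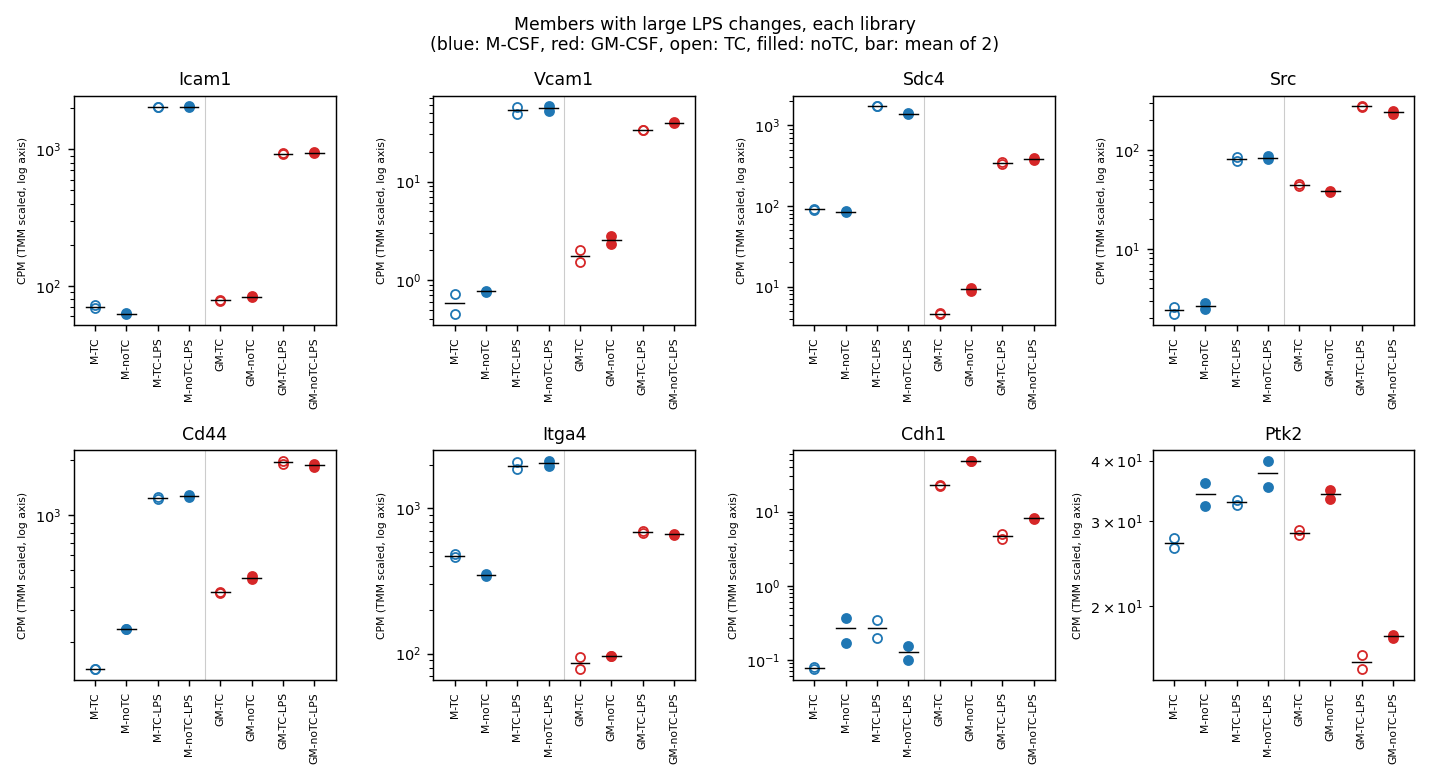
Level of 8 members in each of the 16 libraries, in CPM on log axes, with circles for libraries and bars for the mean of 2. Icam1 stood at 62.0 to 84.2 CPM with vehicle and at 929 to 2073 CPM with LPS, while Ptk2 was lowest in the GM libraries with LPS, at 14.8 to 17.4 CPM.

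The tests of whether effects differed called 12 members for a different LPS effect in GM and M on TC (all tested genes 12.7%) and 10 on noTC (10.3%). Of these, Icam1, Itgal, Itgb3, Lyn, Ptk2, Sdc4, Src, Vcam1 and Zyx were called on both dishes. Itgal rose less in GM on TC (difference -1.45, SE 0.10, adjusted p = 5.20e-11) and on noTC (difference -1.33, SE 0.10, adjusted p = 3.19e-10). Itgb3 had a higher LPS effect in GM on TC (difference 1.64, SE 0.15, adjusted p = 1.00e-08) and on noTC (difference 1.34, SE 0.15, adjusted p = 3.08e-07). Itga6 had one on TC (difference 1.16, SE 0.14, adjusted p = 5.82e-07). Scaling by library size alone moved Fgr, Icam1, Lyn and Ptk2 on TC, and Ptk2 on noTC, below the difference of 1, and all stayed below 0. On whether the dish changed the LPS effect, 0 members were called in GM-BMDMs by edgeR (0.360% of all genes). Sdc4 (difference -0.85, SE 0.11, adjusted p = 9.12e-05) and Cd44 (difference -0.32, SE 0.06, adjusted p = 0.0122) passed the adjusted p there but differed by less than 1, and 11 members had an unadjusted p under 0.05. DESeq2 also called 0. In M-BMDMs Cdh1 was called (difference -2.88, SE 0.94, adjusted p = 0.047), where 1.25% of all genes were, on counts of 2 to 16, and the call was lost in 11 of the 14 alternatives that tested it, among them each fit without a library of M-TC, M-TC-LPS or M-noTC-LPS and that without the second M-noTC library (-2.11, adjusted p = 0.329).

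Beside the 43 members, 86 other genes of adhesion were followed, of which 77 passed the filter on low counts. In GM-TC comparing with M-TC, 30 were higher and 26 lower, in GM-noTC comparing with M-noTC 31 and 25, and upon LPS 30 and 32 on TC and 29 and 30 on noTC. Of all tested genes, 61.5%, 62.1%, 66.8% and 66.1% were called in either direction, in that order. Between LPS and vehicle, 32 were higher and 15 lower in GM cells on TC, and 30 and 17 in GM cells on noTC. In M cells 39 were higher and 15 lower on TC, and 39 and 13 on noTC. The shares of all tested genes called in either direction were 67.0%, 67.7%, 74.0% and 72.3%. The median log2 fold changes of the 77 genes were 0.18, 0.12, 0.33 and 0.29. With genes at 0 in a group set at their bound, these medians were 0.18, 0.12, 0.29 and 0.23. With library size alone they were below 0, at -0.30, -0.30, -0.50 and -0.41. On noTC, 10 were higher and 4 lower in GM at steady state, 5 and 0 in GM upon LPS, 15 and 14 in M at steady state, and 10 and 10 in M upon LPS. Here 7.54%, 2.80%, 27.2% and 23.3% of all tested genes were called in either direction.

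Cadm1, a cell adhesion molecule of the immunoglobulin family, was lower in GM-BMDMs (log2 fold changes -4.68 to -4.98, SE up to 0.08, largest adjusted p = 5.05e-22). Itgae, the alphaE subunit that pairs with Itgb7 and binds E-cadherin, was higher in GM-noTC comparing with M-noTC, at 7.38 and 7.76 CPM against 0.0674 and 0.0929 or 91.9-fold (exact 95% counting interval 41.8 to 252), and in GM-BMDMs higher on noTC than on TC (log2 fold change 1.43, SE 0.23, adjusted p = 2.33e-04). Selp, or P-selectin, was at 4.61 and 5.91 CPM in GM-noTC and 0.0674 and 0.0465 in M-noTC or 96.2-fold (exact 95% counting interval 37.2 to 356). Yes1, a Src family kinase, was at 2.69 and 2.04 CPM in GM-TC-LPS and 0 and 0.0581 in M-TC-LPS or 88.1-fold (exact 95% counting interval 15.4 to 3516). Sele, or E-selectin, was at 0 in M-TC and at 17.6 and 17.2 CPM in M-TC-LPS, at least 150.0-fold higher with 3 counts a library as the floor. In GM-TC-LPS it was at 0.155 and 0.418 CPM. Itgb8, whose partner is Itgav, rose from 0.160 and 0.225 CPM in M-TC to 75.6 and 91.5 in M-TC-LPS, and from 0.0505 and 0 in GM-TC to 15.6 and 17 in GM-TC-LPS. Selp in M-BMDMs was lower on noTC than on TC upon LPS (log2 fold change -1.89, SE 0.24, adjusted p = 4.78e-06).

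Tns1, a tensin of focal adhesions, fell upon LPS in all 4 comparisons with log2 fold changes of -2.0 to -2.58 (SE up to 0.14, largest adjusted p = 2.60e-11), and was lower on noTC in M-BMDMs at steady state (log2 fold change -0.93, SE 0.11, adjusted p = 8.15e-07). Kank2, an adaptor that binds talin, was also lower upon LPS with log2 fold changes of -0.58 to -2.20 (SE up to 0.18, largest adjusted p = 0.00733). Itga8 was lower in GM-BMDMs than in M-BMDMs, and in M-BMDMs it was higher on noTC at steady state (log2 fold change 1.58, SE 0.26, adjusted p = 6.71e-05) and upon LPS (log2 fold change 1.37, SE 0.28, adjusted p = 0.00111). Plaur, the urokinase receptor, was higher on noTC in M-BMDMs at steady state (log2 fold change 1.0, SE 0.08, adjusted p = 4.06e-09). Ldb3, a Z-disc protein of striated muscle, was at 0.757 and 0.725 CPM (GM-TC) and 1.04 and 1.05 CPM (M-TC), with 0 in 11 of the other 12 libraries. It followed the heart muscle markers given above, whose part was not tested.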

How the data were processed

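RNA-seq of 16 libraries in 8 groups of 2 was analysed. The authors deposited expected counts per gene from RSEM, which need not be whole. Per the submitters' processing notes, fastp 0.18.0, Bowtie2 2.2.8, HISAT2, StringTie 1.3.1, RSEM, DESeq2 and edgeR were used. The genome build and annotation behind the counts and the use of strand are not given in the sources used here. The deposited expected counts were rounded to whole numbers, and libraries held 17527802 to 31458363 counts, so that 3 counts equal 0.0954 to 0.171 CPM.

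Of 22287 genes, 12514 passed filterByExpr. Counts were scaled by TMM and tested with edgeR 4.0.16 (R 4.3.3) by the quasi-likelihood test, with 8 group means fitted over all 16 libraries, and p-values were adjusted by Benjamini-Hochberg over all tested genes. A call required an adjusted p under 0.05, and for a difference of effects also a size above 1 on the log2 scale. CPM values are TMM-scaled, and fold changes are differences of fitted log2 values with edgeR's prior count of 0.125. Where a group held 6 counts or fewer, the ratio of summed counts is given with an exact binomial interval, which covers counting error only. Exon lengths and exon overlaps came from the GENCODE annotation, and promoters from RefSeq (GRCm38.p6). The procedure was run on simulated data in which 200 genes changed in GM-noTC and no other gene differed between groups. That setting cannot test the scaling where many genes differ, as between growth factors or upon LPS.

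The members and gene lists were chosen with earlier results of these data known. Values in every library were given for integrin subunits and for members with 1 of the 3 largest changes of either direction past the threshold in any comparison, at 1 CPM or more in 1 group, and other members by ranges. Up to 3 other adhesion genes per direction were named for each kind of comparison by the same conditions. Alternatives were DESeq2 1.42.0, its size factors, library size alone, no expression filter, a replicate block, only the libraries compared, subtraction of the share of reads expected from other libraries, and leaving out each library in turn, where the lone library of a group was assumed to vary like the other groups. The subtracted share was the median excess of noTC over TC at steady state for each growth factor. It used genes below 1 CPM on TC that averaged 100 CPM or more in 10 other libraries. No pairing of libraries by replicate number was detected. Heart muscle and other cell type markers were summed as CPM. Python 3.11.15, pandas 2.3.3, scipy 1.17.1 and matplotlib 3.10.9 were used.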

Additional observations from a re-analysis of the deposited data

Results flagged for a closer look

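The results below were singled out because an effect differed between groups by the test of the difference itself, with an adjusted p under 0.05 by edgeR and a size above 1 on the log2 scale, and values are log2 differences of effects. Groups of 2 are too small for a search for libraries that stand apart.

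The LPS effect in GM-BMDMs minus that in M-BMDMs on TC was past both limits for Cdh1 (-4.00), Sdc4 (1.96), Itgb3 (1.64), Ptk2 (-1.17), Itga6 (1.16), Src (-2.46), Vcam1 (-2.24), Fgr (-1.19), Zyx (-2.04), Itgal (-1.45), Icam1 (-1.30) and Lyn (-1.28). On noTC it was past them for Sdc4 (1.34), Itgb3 (1.34), Vcl (1.19), Ptk2 (-1.13), Src (-2.33), Vcam1 (-2.20), Zyx (-1.31), Itgal (-1.33), Icam1 (-1.53) and Lyn (-1.23). The differences below 0 include Icam1, Vcam1, Src, Zyx, Itgal, Lyn and Ptk2 on both dishes, and those above 0 include Sdc4 and Itgb3 on both. The Cdh1 value rests on 2 to 6 counts in each M library on TC. Of all tested genes, 12.7% were past both limits on TC and 10.3% on noTC.

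The dish effect in GM-BMDMs minus that in M-BMDMs at steady state was past the limits for Sdc4 (1.10), Pecam1 (1.83) and Itgax (-1.56), and upon LPS for Itgax (-1.33). The LPS effect on noTC minus that on TC in M-BMDMs was past them for Cdh1 (-2.88), also on 2 to 16 counts. For the dish effects, 1.75% of all tested genes were past the limits at steady state and 1.42% upon LPS. For the LPS effects in M-BMDMs it was 1.25%. With reads from other libraries subtracted, the Sdc4 value became 0.37 (adjusted p = 0.0643 by edgeR). The Pecam1 value rests on 6 to 16 counts in each M library at steady state. Its call was lost in the fit of the compared libraries alone (1.84, adjusted p = 0.103 by edgeR).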

How the results depend on the processing

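With 2 libraries a group, small differences of low genes were not detectable at this depth, and 2 against 2 libraries cannot reach an exact permutation p below 0.333, so the tests rest on a spread shared across genes and groups. For the growth factor and LPS comparisons, the counts of members called in either direction stayed within 1.5 times under every alternative run. The same held for the LPS effects compared between growth factors. Of 378 pairs of a member and a comparison that were called, DESeq2 lost 8, its size factors 1, library size alone 11 and the replicate block 4. Library size alone turned the direction of 37 others. The fit of the compared libraries alone lost 14 of the 375 it tested, and the subtraction 4 of the 151 in comparisons with a GM-noTC or M-noTC group. No filter on expression lost 0, and leaving out 1 library lost 94 of 1620. The cause was not tested.

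Calls whose direction turned with library size alone were, for GM-TC comparing with M-TC, Icam1 (-0.15), and for GM-noTC comparing with M-noTC, Lyn (-0.13). Upon LPS in GM-TC they were Itgb2 (-0.38), Itgb3 (-0.0418), Nrp1 (-0.014), Tln1 (-0.27), Cd9 (-0.35) and Itgam (-0.35), and in GM-noTC Sdc3 (-0.17), Nrp1 (-0.26), Cd9 (-0.28), Itgam (-0.39) and Lyn (-0.064). In M-TC they were Itgb2 (-0.60), Sdc1 (-0.26), Ptk2 (-0.55), Fermt3 (-0.68), Sdc3 (-0.36), Tln1 (-0.44), Pxn (-0.47), Cd9 (-0.45), Itgam (-0.44), Itgax (-0.27), Ilk (-0.47), Selplg (-0.53) and Ptk2b (-0.29). In M-noTC they were Itgb2 (-0.59), Sdc1 (-0.51), Sdc3 (-0.54), Fgr (-0.0838), Pxn (-0.21), Cd9 (-0.41), Itgam (-0.44), Itgax (-0.46), Ilk (-0.42), Selplg (-0.53) and Ptk2b (-0.52).

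The 10 calls between the dishes in GM-BMDMs at steady state became 5 with the compared libraries alone and 8 to 17 without 1 library, the highest without the first GM-TC library. For the dishes in GM-BMDMs upon LPS it was 5, and 8 with the compared libraries alone. The 1 call for the dish by LPS effect in M-BMDMs became 0 with library size alone, DESeq2, the replicate block and the subtraction, 0 with the compared libraries alone, in which Cdh1 was not tested, and 0 to 1 without 1 library. Same-numbered libraries correlated by -0.0636 to 0.0200 in their deviations from group means. No pairing by number was detected, which cannot exclude a shared animal. With the replicate block the calls of Itgb2 upon LPS in GM-TC, Itga9 between the dishes in M-BMDMs at steady state, Pecam1 for the dish by growth factor effect and Cdh1 for the dish by LPS effect in M-BMDMs were lost, and no other call changed.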
